A study of Mus musculus with 6 samples.

Results

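The mitotic kinesins Kif2c, Kif4, Kif11, Kif14, Kif15, Kif18b, Kif20a, Kif20b, Kif22 and Kif23 were followed in DN3 thymocytes of Hspa9 cKO and WT mice. They were found by name and Ensembl gene ID. They make up 10 of the 11753 genes for which the deposited tables gave a level, and all 10 reached the minimum for testing, 1 FPKM or more in at least 3 libraries. FPKM scales the fragments of a transcript by its length and by the fragments of the whole library.

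Kinesins are motor proteins that burn ATP to walk along microtubules or to take their ends apart. The mitotic kinesins push the spindle poles apart, set the length of spindle microtubules, move chromosome arms, and build the midzone where the cell is cut, and their messenger RNAs accumulate in late S, G2 and M phase. DN3 cells are early T cell precursors of the thymus. Those that make a working T cell receptor beta chain pass beta-selection and begin to divide rapidly, whereas those before it are mostly at rest.

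RNA sequencing compared Hspa9 cKO mice (3 libraries) with WT mice (3 libraries) to ask what GRP75 does in early thymocytes. Hspa9 encodes GRP75, or mortalin, an HSP70 chaperone of the mitochondrial matrix. All mice were 5 weeks old and untreated, and the cells were sorted as negative for lineage markers, CD4, CD8 and CD44 and positive for CD25. The sources used here give neither the Cre driver, nor the alleles of the WT mice, nor the number of animals behind a library. The p-values therefore measure only how far these 6 libraries spread, and that spread may be technical.

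The Hspa9 event that skips exons 2 to 4 was listed at 76.9, 89.4 and 68.9 FPKM in the cKO libraries, against 0, 12.3 and 16.95 FPKM in the WT libraries. The event that includes these exons stood at 24.9, 16.8 and 25.2 FPKM in cKO and at 105, 109 and 105 FPKM in WT, so each library carried the pattern of its label and some inclusion was left in every cKO library. The libraries listed 90561 to 90970 distinct transcript events in cKO and 87403 to 89771 in WT. The tables hold no counts, so depth is unknown. Of the 17 DN3 markers, 16 had a level. Il2ra, which encodes CD25, stood at 366 to 383 FPKM in cKO and at 145 to 158 FPKM in WT, while Cd44 was below 1 FPKM in all 6 libraries.

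All 10 mitotic kinesins fell in Hspa9 cKO cells by limma's test with Benjamini-Hochberg adjusted p under 0.05, and passing that threshold is named a call here. In the same fit over 8883 genes, 518 fell, which is 5.83%, and 745 rose, which is 8.39%. In all 10 the 3 cKO libraries lay below the 3 WT libraries, which was so for 15.9% of the genes tested. With 1 library left out, 5 to 8 of the 10 fell by the same test, beside 2.24 to 3.73% of the genes tested, with 5 in the fits without cKO 1 or cKO 3 and 6 in that without WT 1. The median log2 change of FPKM + 1 was -0.74 for the 10 kinesins and 0.06 for all tested genes. Their summed level was 45.2, 46.5 and 47.9 FPKM in the cKO libraries, against 94.4, 83.6 and 90.1 FPKM in the WT libraries. The cKO sum was 52.1% of the WT sum (46.5 ± 1.37 against 89.3 ± 5.45 FPKM, SD, n = 3 each). In 9 of the 10, Kif11 excepted, the cKO mean was under 60% of the WT mean, a size of fall that 3.65% of tested genes reached. The members and the gene lists were chosen with earlier results of these data known. The shares over all genes are therefore a background and not a test of the members. In bulk samples a smaller share of dividing cells and less RNA in each dividing cell cannot be told apart. Single values set 3 libraries against 3, so an exact permutation test cannot go below a two-sided p of 0.1, which each of the 10 genes reached.

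**Figure D1:**
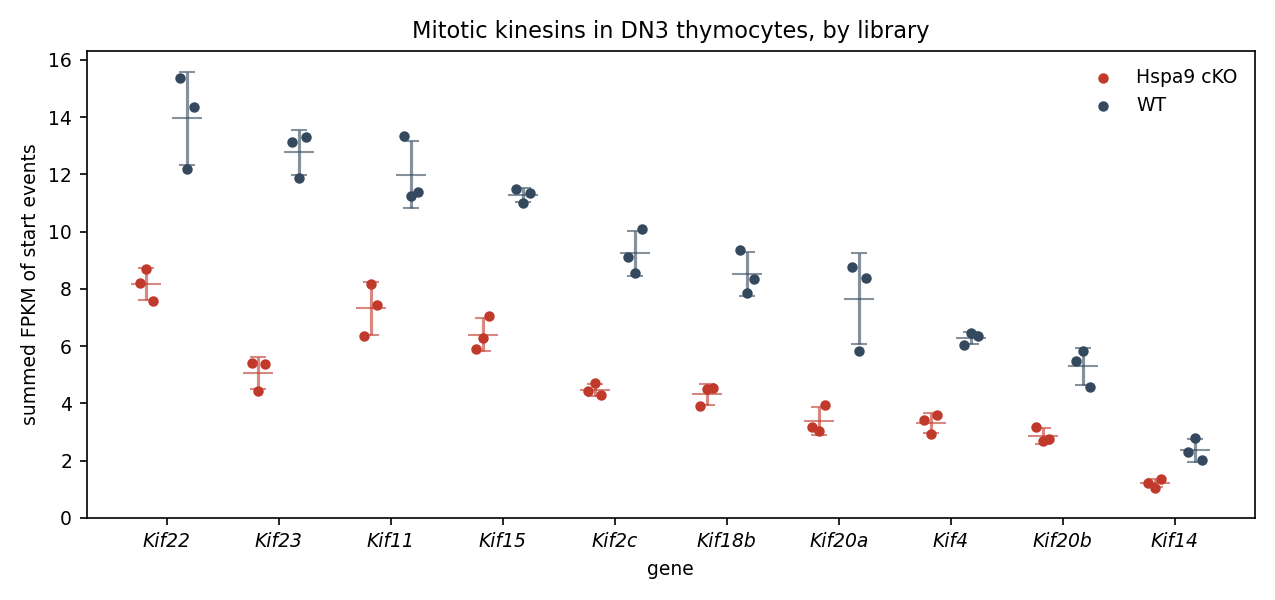
Summed FPKM of the start events of each mitotic kinesin in the 3 Hspa9 cKO libraries (red, left) and the 3 WT libraries (dark blue, right), with group mean (horizontal line) and SD (bar). No cKO point reaches a WT point of the same gene, and Kif22 is the most abundant and Kif14 the least abundant member in both groups.

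Promoters are shown because the members moved together, and they show what their start regions share outside the expression values. RefSeq promoters of the build GRCm38.p6, from 250 bases before to 50 bases after a transcript start, matched 9 of the 10 genes. In 6 of these the RefSeq start lay within 50 bases of the start event with the highest FPKM, and the other 3, of Kif2c, Kif4 and Kif14, lay farther from it and were left out. The 4 of the 6 with the smallest adjusted p are printed 5′ to 3′ on the strand of the gene. Capitals mark matches to 3 motifs on either strand. The cell cycle genes homology region, CHR, was searched as TTTGAA and the less usual form TTCGAA was counted with it. The box bound by NF-Y was searched as CCAAT on both strands. Sites of the E2F family were searched as TTTCCCGC and as TTTGGCGC. No motif of these overlapped another, although the E2F match and a CHR match of Kif15 adjoin and read as one run of capitals.
Kif23 (chr9:61946750-61947049, minus strand): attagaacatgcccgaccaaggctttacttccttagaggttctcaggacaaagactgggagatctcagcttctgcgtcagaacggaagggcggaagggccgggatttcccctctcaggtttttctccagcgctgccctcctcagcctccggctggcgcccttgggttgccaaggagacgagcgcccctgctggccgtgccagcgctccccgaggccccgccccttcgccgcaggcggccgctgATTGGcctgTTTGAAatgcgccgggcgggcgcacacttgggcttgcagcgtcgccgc
Kif15 (chr9:122950831-122951130, plus strand): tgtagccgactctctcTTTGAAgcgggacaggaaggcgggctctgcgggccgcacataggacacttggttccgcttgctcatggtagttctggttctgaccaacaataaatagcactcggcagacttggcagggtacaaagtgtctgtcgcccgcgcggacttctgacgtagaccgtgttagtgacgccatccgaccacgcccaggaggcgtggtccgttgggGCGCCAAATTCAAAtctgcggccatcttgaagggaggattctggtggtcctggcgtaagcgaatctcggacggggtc
Kif18b (chr11:102925075-102925374, minus strand): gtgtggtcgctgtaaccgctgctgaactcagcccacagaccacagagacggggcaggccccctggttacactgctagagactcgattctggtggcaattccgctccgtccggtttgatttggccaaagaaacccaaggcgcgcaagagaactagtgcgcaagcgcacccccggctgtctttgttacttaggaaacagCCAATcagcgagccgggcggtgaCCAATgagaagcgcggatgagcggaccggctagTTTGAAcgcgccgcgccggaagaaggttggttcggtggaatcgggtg
Kif22 (chr7:127042371-127042670, minus strand): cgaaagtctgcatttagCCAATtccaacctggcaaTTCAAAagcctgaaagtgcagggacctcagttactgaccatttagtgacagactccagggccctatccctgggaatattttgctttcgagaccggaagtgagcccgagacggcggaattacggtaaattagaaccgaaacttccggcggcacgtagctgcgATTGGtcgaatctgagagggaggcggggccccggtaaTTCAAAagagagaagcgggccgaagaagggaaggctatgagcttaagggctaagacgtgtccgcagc

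All 6 promoters held a CHR match, which was found in 19.2% of 32851 RefSeq promoters of the same length. Counting the start base as 0, the CHR match nearest the start began at base 2 in Kif23, 3 in Kif18b, 7 in Kif20b, -17 in Kif22, and -19 in both Kif15 and Kif11. Every one of these was TTTGAA or its reverse complement. A TTTGAA beginning within 25 bases of the start, a window set after the positions had been seen, occurred in 2.7% of all promoters. CCAAT was found in Kif23, Kif18b, Kif22 and Kif11, that is in 4 of 6, against 37.4% of all promoters, and these 4 held both motifs, against 7.52%. The E2F letters were found in Kif15, 1 of 6, against 1.56%. In Kif18b both CCAAT matches, at -53 and -30, preceded the CHR match. A match of letters is a description of the sequence and not evidence of a bound factor.

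**Figure D2:**
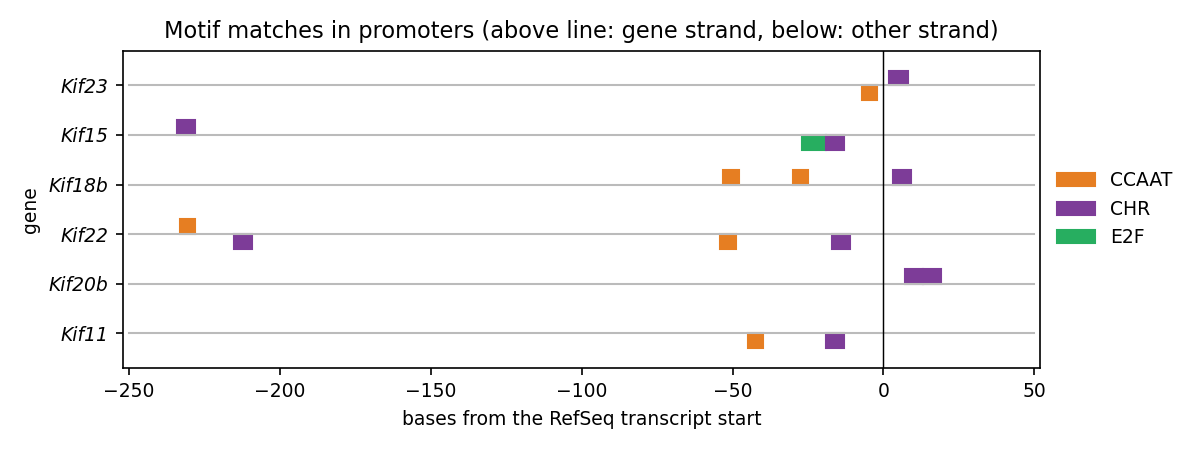
Positions of CHR, CCAAT and E2F matches in the 6 promoters whose RefSeq start lies within 50 bases of the main start in these cells, in bases from the RefSeq start (0). Matches on the gene strand stand above the line and those on the other strand below it, and each promoter has a CHR match beginning between -19 and 7.

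Kif11 and Kif15 drive the spindle poles apart. Kif11, also called Eg5, is a kinesin-5 that crosslinks antiparallel microtubules and slides them outward. Kif11 (ENSMUSG00000012443, mm10 chromosome 19, 37376403 to 37421859, plus strand) had 6.35, 8.16 and 7.45 FPKM in cKO, against 13.3, 11.2 and 11.4 FPKM in WT. The groups did not overlap, and cKO library 2, the highest of its group, was still below the lowest WT library. Kif11 fell by 0.64 on the log2 scale (SE 0.12, limma adjusted p = 0.0221) to 61.1% of the WT mean. Leaving out WT 1, WT 3, cKO 1 or cKO 3 ended that call, with adjusted p up to 0.0723.

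Kif15 is a kinesin-12 that keeps the spindle bipolar together with Kif11. Kif15 (ENSMUSG00000036768, chromosome 9, 122951046 to 123018733, plus strand) had 5.89, 6.27 and 7.04 FPKM in cKO, against 11.5, 11.0 and 11.3 FPKM in WT. The WT libraries lay close together and far above all cKO libraries. Kif15 fell by 0.73 on the log2 scale (SE 0.09, adjusted p = 0.00723), and the call held with any 1 library left out. Tpx2, a spindle assembly factor that binds Kif15 and Kif11, was at 12.0, 10.4 and 10.5 FPKM in cKO and at 20.97, 23.0 and 21.3 FPKM in WT, and it fell by 0.93 (SE 0.09, adjusted p = 0.00344).

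Kif2c and Kif18b shorten microtubules. Kif2c, or MCAK, is a kinesin-13 that does not walk but takes microtubule ends apart at centromeres and so helps to correct wrong attachments. Kif2c (ENSMUSG00000028678, chromosome 4, 117159639 to 117182639, minus strand) had 4.42, 4.71 and 4.28 FPKM in cKO, against 9.11, 8.54 and 10.1 FPKM in WT. The cKO values were tightly grouped, and the lowest WT value was well above them. Kif2c fell by 0.90 (SE 0.10, adjusted p = 0.00502) to 48.3% of the WT mean.

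Kif18b, a kinesin-8, limits the length of astral microtubules and is known to act with Kif2c. Kif18b (ENSMUSG00000051378, chromosome 11, 102905529 to 102925124, minus strand) had 3.89, 4.51 and 4.53 FPKM in cKO, against 9.36, 7.85 and 8.36 FPKM in WT. Again no cKO library reached the WT range. Kif18b fell by 0.84 (SE 0.11, adjusted p = 0.00745) to 50.6% of the WT mean. The calls of Kif2c and Kif18b held with any 1 library left out.

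Kif22 and Kif4 are chromokinesins, motors that bind DNA. Kif22, or Kid, pushes chromosome arms toward the middle of the spindle. Kif22 (ENSMUSG00000030677, chromosome 7, 127027729 to 127042471, minus strand) had 8.20, 8.68 and 7.57 FPKM in cKO, against 15.4, 12.2 and 14.3 FPKM in WT. WT 2 was the lowest WT library and still lay above every cKO library. Kif22 fell by 0.71 (SE 0.11, adjusted p = 0.0137) to 58.4% of the WT mean. Without cKO 1 or cKO 3 the call was lost, with adjusted p up to 0.0555.

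Kif4 acts with condensin on chromosome arms and with Prc1 at the spindle midzone. Kif4 (ENSMUSG00000034311, chromosome X, 100625737 to 100727214, plus strand) had 3.43, 2.94 and 3.60 FPKM in cKO, against 6.04, 6.45 and 6.35 FPKM in WT. The gap between the groups was wider than the spread within either. Kif4 fell by 0.76 (SE 0.10, adjusted p = 0.00935) to 52.9% of the WT mean, also with any 1 library left out. Kif4 shares its locus with Pdzd11 on the other strand, and the sources used here do not say whether the libraries kept strand. Processed pseudogenes of Kif4 and Kif22 exist elsewhere in the genome, and neither had a level.

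Kif23, Kif20a, Kif20b and Kif14 serve the last steps of division. Kif23, or MKLP1, forms centralspindlin with Racgap1 and bundles the microtubules of the midzone. Kif23 (ENSMUSG00000032254, chromosome 9, 61915905 to 61946774, minus strand) had 5.41, 4.42 and 5.39 FPKM in cKO, against 13.1, 11.9 and 13.3 FPKM in WT. Library 2 was the lowest of each group, and the groups were far apart. By its start events Kif23 fell by 1.18 (SE 0.11, limma adjusted p = 0.00304) to 39.7% of the WT mean, the largest fall of the 10. The call held with any 1 library left out. Kif23 transcripts without the intron between exon bases 61919957 and 61921019 stood at 3.69, 7.20 and 7.23 FPKM in cKO, against 11.2, 10.1 and 14.1 FPKM in WT. In cKO 2, cKO 3 and WT 3 these values exceeded the summed starts, so the starts miss part of the Kif23 transcripts there. When levels were taken from transcript ends the change of Kif23 was 0.18 (adjusted p = 0.815), but its listed end events do not include the annotated 3′ end of the gene. The partner Racgap1 was at 15.5, 13.6 and 15.7 FPKM in cKO and at 24.1, 25.9 and 30.8 FPKM in WT, with a log2 change of -0.80 (SE 0.11, adjusted p = 0.00987).

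Kif20a, or MKLP2, carries the chromosomal passenger complex from the chromosomes to the midzone. Kif20a (ENSMUSG00000003779, chromosome 18, 34624613 to 34633277, plus strand) had 3.17, 3.04 and 3.94 FPKM in cKO, against 8.77, 5.82 and 8.39 FPKM in WT. WT 2 lay below the other WT libraries and above all cKO libraries. Kif20a fell by 0.97 (SE 0.17, adjusted p = 0.0196) to 44.2% of the WT mean. The call was lost when any library other than WT 2 was left out, with adjusted p up to 0.0718. Kif20a overlaps Cdc23 on the other strand, so reads of the pair could be mixed if strand was not kept. Of the cargo complex, the kinase Aurkb was at 11.1, 8.27 and 7.58 FPKM in cKO and at 27.4, 18.8 and 29.3 FPKM in WT (log2 change -1.38, SE 0.21, adjusted p = 0.0121). The groups did not overlap, and the call of Aurkb was lost without cKO 2 or cKO 3 (adjusted p up to 0.0512).

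Kif20b, or MPP1, takes part in the completion of cytokinesis. Kif20b (ENSMUSG00000024795, chromosome 19, 34922361 to 34975745, plus strand) had 3.19, 2.68 and 2.75 FPKM in cKO, against 5.48, 5.82 and 4.57 FPKM in WT. The groups were apart, with WT 3 nearest to the cKO values. Kif20b fell by 0.70 (SE 0.12, adjusted p = 0.0188) to 54.3% of the WT mean, and the call was lost when any library other than WT 3 was left out, with adjusted p up to 0.0717.

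Kif14 is a kinesin-3 that brings citron kinase to the midbody and binds Prc1. Kif14 (ENSMUSG00000041498, chromosome 1, 136466343 to 136531511, plus strand) had 1.23, 1.05 and 1.36 FPKM in cKO, against 2.28, 2.78 and 2.003 FPKM in WT. It was the least abundant of the 10, close to the minimum for testing in cKO, and its groups did not overlap. Kif14 fell by 0.60 (SE 0.14, adjusted p = 0.0409) to 51.5% of the WT mean. The pseudocount understates the change of so low a gene, and the call was lost whichever of the 6 libraries was left out, with adjusted p up to 0.116. Prc1 did not pass the test, with 6.32, 8.27 and 6.51 FPKM in cKO and 14.8, 8.44 and 17.2 FPKM in WT (adjusted p = 0.0940). Cit, the gene of citron kinase, did not pass either (log2 change -0.28, adjusted p = 0.373).

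The order of the 10 by mean level differed little between the groups. In cKO cells it ran Kif22, Kif11, Kif15, Kif23, Kif2c, Kif18b, Kif20a, Kif4, Kif20b, Kif14, and in WT cells the order was the same except that Kif23 stood second, before Kif11 and Kif15. Most neighbours in the order overlapped between libraries. In cKO only Kif15 over Kif23 and Kif20b over Kif14 were apart, and in WT only Kif15 over Kif2c, Kif4 over Kif20b and Kif20b over Kif14. Kif23 made up 12.0, 9.51 and 11.2% of the summed FPKM of the 10 in cKO libraries, against 13.9, 14.2 and 14.7% in WT libraries. Kif23 was the one member whose share did not overlap between the groups (exact permutation p = 0.1, adjusted p = 0.6 over 10 shares). With so few libraries no adjusted permutation p could fall below 0.1. The share of Kif23 rests on its start events, which miss part of its transcripts in some libraries.

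Other kinesins were set beside the 10. Of 33 further protein-coding kinesin genes in the annotation, 19 had a level and 14 were tested. Among these 14, 1 fell, 1 rose and 12 did not pass, 9 had a log2 change below 0, and the median was -0.13. Of the 5 listed as having a role in mitosis (Kifc1, Kif18a, Cenpe, Kif24 and Kif2a) 0 passed and 4 lay below 0. Their median was -0.23, against -0.06 for the 9 transport and other kinesins. The median of -0.23 is the value of Kif24, whose level was close to the minimum for testing. Kif17, a transport motor best known from neurons, fell by 0.68 (SE 0.11, adjusted p = 0.0146), with 3.91, 3.92 and 4.53 FPKM in cKO against 6.83, 6.81 and 8.03 FPKM in WT. Without cKO 1 or cKO 2 that call was lost (adjusted p up to 0.0581), and 0 of the 14 fell. Kif21b, which moves along and regulates microtubules in lymphocytes and neurons, rose by 0.43 (SE 0.07, adjusted p = 0.0153), with 42.2, 43.1 and 42.1 FPKM in cKO against 31.9, 29.4 and 32.7 FPKM in WT. Kif21b was above every mitotic kinesin in level in both groups, and its call was lost without any 1 of the cKO libraries (adjusted p up to 0.0606), which left 0 of the 14 called higher.

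Kifc1, a minus-end motor that focuses spindle poles, stood at 10.6, 13.3 and 12.4 FPKM in cKO and at 18.4, 18.4 and 14.3 FPKM in WT. Its groups did not overlap, but the change of -0.46 (95% interval -0.78 to -0.14) had an adjusted p of 0.0719. It passed without WT 3 (adjusted p = 0.0486) and with levels from transcript ends (adjusted p = 0.0343). Reads could be divided between Kifc1 and its close copy Kifc5b, which had no level. Cenpe, the kinetochore motor that brings chromosomes to the spindle equator, changed by -0.19 (95% interval -0.47 to 0.09, adjusted p = 0.321), with 4.40, 4.74 and 4.005 FPKM in cKO overlapping 5.10, 5.72 and 4.59 FPKM in WT. Kif18a, which dampens chromosome movements at the spindle equator, had 2.82, 2.02 and 1.76 FPKM in cKO, all below the 3.43, 2.92 and 2.89 FPKM in WT, and its change of -0.36 (95% interval -0.74 to 0.02) had an adjusted p of 0.176. The cargo motors Kif5b, with a change of -0.26 (95% interval -0.49 to -0.04, adjusted p = 0.113), and Kif3b, with 0.23 (95% interval -0.04 to 0.50, adjusted p = 0.221), did not pass the test. Whether any of these differs from the mitotic kinesins was not tested.

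**Figure D3:**
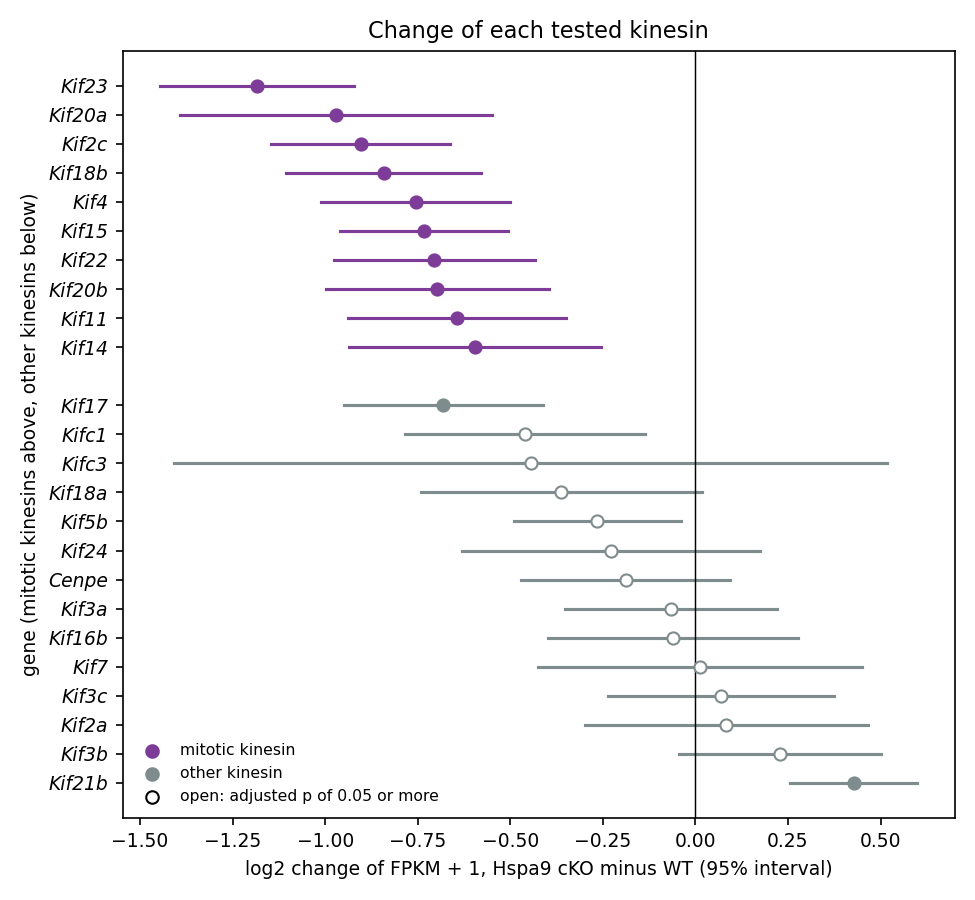
Log2 change of FPKM + 1 (Hspa9 cKO minus WT) with its 95% interval for the 10 mitotic kinesins (purple, above) and the 14 other tested kinesins (grey, below), where open points have an adjusted p of 0.05 or more. The purple points run from -1.18 for Kif23 to -0.60 for Kif14, whereas the grey points run from -0.68 for Kif17 to 0.43 for Kif21b.

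Genes that work with the mitotic kinesins were read together with other cell cycle genes, among them DNA replication genes, transcription factors and inhibitors. The 9 lists held 129 genes, of which 119 were tested. Of these, 62 fell, 1 rose and the median log2 change was -0.54, beside 5.83% of all tested genes that fell. With 1 library left out 36 to 46 fell, with 36 in the fits without WT 1, cKO 2 or cKO 3. In the chromosomal passenger complex 3 of 4 genes fell. Birc5, or survivin, was at 23.0, 26.5 and 24.5 FPKM in cKO, against 53.5, 51.0 and 58.8 FPKM in WT (log2 change -1.11, adjusted p = 0.00205). Incenp, the scaffold of the complex, changed by -0.64 (adjusted p = 0.00906), while the remaining member, Cdca8, did not pass (-0.55, adjusted p = 0.134).

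Among central spindle and cytokinesis genes, 4 of 10 fell. The polo kinase Plk1, which primes the midzone for cleavage, was at 12.7, 12.4 and 12.7 FPKM in cKO, against 29.5, 30.2 and 32.6 FPKM in WT (log2 change -1.22, adjusted p = 0.000954). Among spindle pole and microtubule regulators 10 of 15 fell, with Tpx2 and Nusap1 (-0.70, adjusted p = 0.00403), a microtubule bundling protein, at the smallest p. Mapre1, the plus-end tracking protein EB1, did not pass the test, at 22.05, 21.9 and 21.01 FPKM in cKO and 20.6, 22.8 and 20.9 FPKM in WT (log2 change 0.01, adjusted p = 0.917).

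Of kinetochore and checkpoint genes 11 of 20 fell, among them the checkpoint proteins Bub1b (-0.85, adjusted p = 0.00209) and Bub3 (-0.66, adjusted p = 0.00436). Of condensin and topoisomerase genes 5 of 9 fell. Top2a, which untangles sister DNA, was at 36.4, 36.9 and 37.9 FPKM in cKO, against 78.1, 81.0 and 74.9 FPKM in WT (log2 change -1.05, adjusted p = 0.00101). Ncapg, a condensin I subunit, changed by -0.63 (adjusted p = 0.00745). Of the G2/M regulators 11 of 16 fell. Ccnb1, cyclin B1, was at 4.84, 5.13 and 5.37 FPKM in cKO, against 18.5, 16.7 and 14.3 FPKM in WT (log2 change -1.51, adjusted p = 0.00179). The ubiquitin-conjugating enzyme Ube2c, which serves the anaphase-promoting complex, changed by -1.41 (adjusted p = 0.000591).

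The falls were not limited to mitosis. Of the DNA replication genes 14 of 21 fell, with a median of -0.47. The sliding clamp Pcna was at 224, 221 and 211 FPKM in cKO, against 366, 367 and 392.4 FPKM in WT (log2 change -0.77, adjusted p = 0.00195), and the helicase subunit Mcm3 changed by -0.44 (adjusted p = 0.00731). Of 18 tested cell cycle transcription factors 3 fell, with a median of -0.21. E2f2, an activator of S phase genes, changed by -0.95 (adjusted p = 0.00240), and E2f8, a repressor of the same family, by -0.76 (adjusted p = 0.0243). The call of E2f8 was lost with levels from transcript ends and when any library other than WT 3 was left out (adjusted p up to 0.0825). Foxm1, which switches on many mitotic genes, had no level. Among the Lin subunits of MuvB and its partners Rbl1, Rbl2 and Mybl2, which act at CHR elements, Lin54 changed by -0.62 (adjusted p = 0.0448, and up to 0.118 with 1 library left out, where its call was always lost) and was the only 1 of 7 tested to pass. Lin52 stood at 3.49, 3.39 and 3.52 FPKM in cKO, all above the 1.85, 2.75 and 1.03 FPKM in WT (log2 change 0.68, adjusted p = 0.104). Rbl2, whose groups were also apart, changed by 0.29 (adjusted p = 0.133) and Lin9 by 0.24 (adjusted p = 0.475). Rbl1 changed by -0.21 (adjusted p = 0.213), Lin37 by -0.24 (adjusted p = 0.289) and Mybl2 by -0.21 (adjusted p = 0.472). Of 6 tested cell cycle inhibitors 1 fell and 1 rose, namely Cdkn2c, which inhibits CDK4 and CDK6, and Ccng1, a p53 target that changed by 0.70 (adjusted p = 0.00602).

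**Figure D4:**
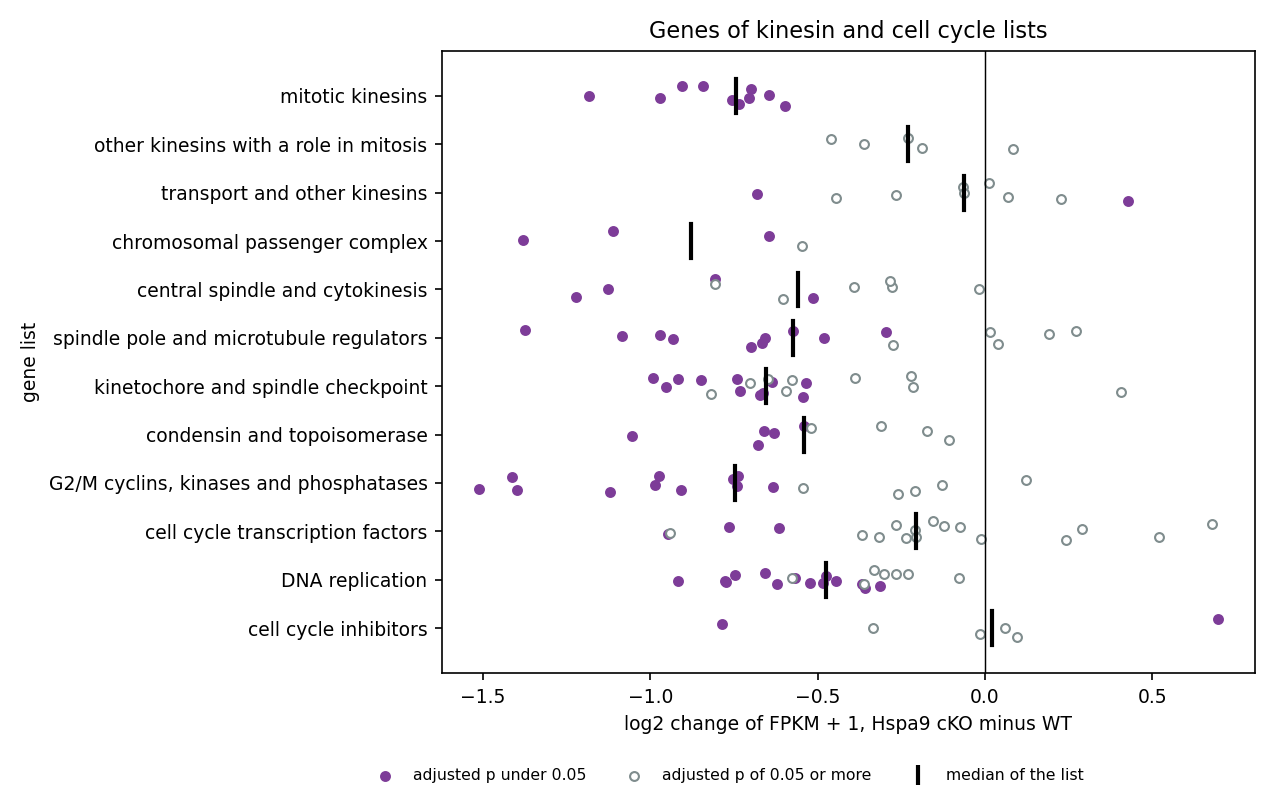
Log2 change of FPKM + 1 (Hspa9 cKO minus WT) of every tested gene in the kinesin lists and the partner and cell cycle lists, with filled points at an adjusted p under 0.05 and a black bar at the median of each list. Medians lie at -0.74 for mitotic kinesins, -0.23 for the other kinesins with a role in mitosis, -0.06 for transport kinesins, -0.88 for the passenger complex, -0.75 for G2/M regulators, -0.47 for DNA replication and 0.02 for cell cycle inhibitors.

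The genes whose profile over the 6 libraries was nearest to the mean profile of the 10, by root mean square distance of log2 values centred on each gene's mean, were Cdkn2c (0.0404), Cks1b (0.0593), Nek2 (0.0657), Ube2s (0.0704) and Bub1b (0.0707). Cdkn2c stood at 2.76, 2.64 and 2.86 FPKM in cKO and at 5.77, 5.48 and 5.15 FPKM in WT. Cks1b, a small subunit that binds cyclin-dependent kinases, stood at 50.1, 50.4 and 52.2 FPKM in cKO and at 83.7, 86.5 and 86.2 FPKM in WT. Nek2 is a centrosomal kinase and Ube2s an enzyme of the anaphase-promoting complex. Among the 10 kinesins themselves Kif15 (0.0597) and Kif18b (0.0638) lay nearest to the mean profile and Kif23 (0.205) farthest. The distance of Kif23 rests on its start events, which miss part of its transcripts in some libraries.

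Markers and stress genes were read in the same libraries. Of 16 tested DN3 markers 8 rose, among them Il2ra (log2 change 1.30) and Ptcra (1.02), which encodes the surrogate alpha chain of the pre-T cell receptor, and 1 fell, Tcf7 (-0.77). Their summed level was 3204 to 3437 FPKM in cKO and 2402 to 2601 FPKM in WT. Of 8 tested markers of the later DN4 and DP stages 2 fell, among them Cd8b1, which encodes the CD8 beta chain, with 2.12, 2.71 and 2.08 FPKM in cKO against 6.36, 5.81 and 6.03 FPKM in WT. The summed level of the 9 later-stage markers was 74.1 to 90.4 FPKM in cKO and 66.2 to 81.5 FPKM in WT, and Cd4 was below 1 FPKM in all 6 libraries. Stage markers thus moved beside the mitotic kinesins, and their part in the fall of the kinesins was not tested. The call of Tcf7 was lost when any library but WT 1 or WT 2 was left out (adjusted p up to 0.0947), and with levels from transcript ends, where it changed by -0.44 (adjusted p = 0.160).

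Markers of other cell types were read from fixed lists. Of the B cell markers 5 of 6 had no level. The other, Cd79b, which encodes a chain of the B cell receptor complex, rose to 17.3, 18.3 and 15.3 FPKM in cKO, against 12.6, 9.75 and 11.9 FPKM in WT (log2 change 0.54, adjusted p = 0.0362), a call that was lost with any 1 library left out (adjusted p up to 0.109). Of the NK cell markers Nkg7 and Gzma alone had a level, and they moved in opposite directions while their sum was 201 to 207 FPKM in cKO and 200 to 220 FPKM in WT. Nkg7, a granule protein of cytotoxic cells, rose to 58.4, 61.6 and 57.5 FPKM in cKO, against 31.1, 29.6 and 32.9 FPKM in WT (log2 change 0.90, adjusted p = 0.00205). Gzma, a granule protease, fell to 148, 143 and 144 FPKM in cKO, against 175, 171 and 187 FPKM in WT (log2 change -0.29, adjusted p = 0.0316), a call that was lost without any 1 library but WT 2 (adjusted p up to 0.106). Dendritic markers summed to 0 in cKO and to at most 0.0924 FPKM in WT, and myeloid markers to 14.4 to 15.9 FPKM in cKO and 9.61 to 16.4 FPKM in WT. Gamma delta T cell markers summed to 14.7 to 19.97 FPKM in cKO and 10.2 to 21.3 FPKM in WT, and erythroid markers to 7.69 to 8.26 FPKM in cKO and 10.7 to 12.8 FPKM in WT. DN1 and DN2 markers summed to 8.68 to 10.8 FPKM in cKO and 8.55 to 11.7 FPKM in WT, and stromal markers to 62.5 to 69.6 FPKM in cKO and 48.0 to 51.9 FPKM in WT, mostly Epcam and Pecam1. Epcam rose (log2 change 0.47, limma adjusted p = 0.0193), a call lost without any 1 library but WT 3 (adjusted p up to 0.0638). The erythroid marker Hbb-bt fell (log2 change -0.53, limma adjusted p = 0.0317), a call lost with any 1 library left out (adjusted p up to 0.101). Immediate early genes, which respond to cell handling and to signals, fell in 4 of 6 tested cases, with sums of 72.2 to 83.8 FPKM in cKO and 163 to 177 FPKM in WT. The part of these genes and of the other markers in the result was not tested.

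The tables also list which start, end, exon or intron a transcript uses, and 31 such choices could be compared in 8 of the 10 kinesins. The groups were apart in 9 of the 31, against 11.3% of 21036 choices over all genes. Several of the 9 are shares of the same total and not independent, namely those of the Kif23 starts, the Kif23 ends, and the Kif22 ends and intron. The smallest adjusted permutation p was 0.344. No choice could have passed, because with 3 against 3 libraries the permutation p cannot go below 0.1. Kif22 transcripts that keep an intron of 126 bases (between exon bases 127033035 and 127033162) made up 10.5, 11.2 and 8.02% in cKO, against 0.00706, 4.44 and 3.05% in WT. Kif22 molecules with the distal end made up 76.4, 75.5 and 77.9% in cKO, against 90.5, 81.1 and 85.8% in WT. The transcripts with the intron, those that keep the introns from 127033678 to 127035748, and those that end at 127032228 to 127032764 had identical FPKM in every library. They are thus one observation, at 0.865, 0.971 and 0.607 FPKM in cKO and 0.001075, 0.541 and 0.438 FPKM in WT. The form without the 126-base intron stood at 7.34, 7.71 and 6.96 FPKM in cKO and 15.2, 11.6 and 13.9 FPKM in WT.

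Kif20a used its middle start for 99.995, 89.1 and 99.98% of its FPKM in cKO, against 87.2, 73.3 and 87.5% in WT. The 3 starts share one first base and differ in the end of the first exon. Inclusion of a 312-base exon of Kif23 (61923905 to 61924216) spread widely within both groups, at 74.4, 39.9 and 28.1% in cKO and 67.6, 28.9 and 81.2% in WT. Kif23's 42-base exon stood at 31.1, 35.01 and 51.0% in cKO and at 57.6, 14.4 and 59.2% in WT, and the groups overlapped. A 102-base exon of Kif20b stood at 85.6, 57.9 and 44.7% in cKO and at 58.9, 81.8 and 55.1% in WT, again overlapping.

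Kif23 used its main start for 95.7, 93.7 and 94.9% of its FPKM in cKO, against 97.96, 97.9 and 97.3% in WT. An end of Kif23 at 61926788 to 61927467, inside the gene, took 4.25, 1.61 and 5.38% of its end FPKM in cKO, against 34.6, 14.7 and 15.1% in WT. Another inner end, at 61925597 to 61925687, went the other way, with 26.9, 22.2 and 25.8% in cKO against 3.90, 19.7 and 0.653% in WT. The listed ends leave out the annotated 3′ end of Kif23, so these are shares of only a part of its transcripts. The groups were apart for the main start and for both of these inner ends. They were also apart, by a narrow margin, for a 99-base exon of Kif4, included in 97.8, 96.9 and 97.2% in cKO and 98.6, 97.8 and 98.3% in WT. Kif15 used the start at 122951046 for 82.9, 84.7 and 63.5% of its FPKM in cKO, against 84.2, 93.1 and 68.6% in WT, and library 3 was the lowest in both groups. Kif14 used its first start for 0, 89.8 and 95.2% in cKO, against 95.9, 47.9 and 96.1% in WT. In cKO 1 the first start was not listed and was set to 0, which can be a failed estimate in a gene this low.

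**Figure D5:**
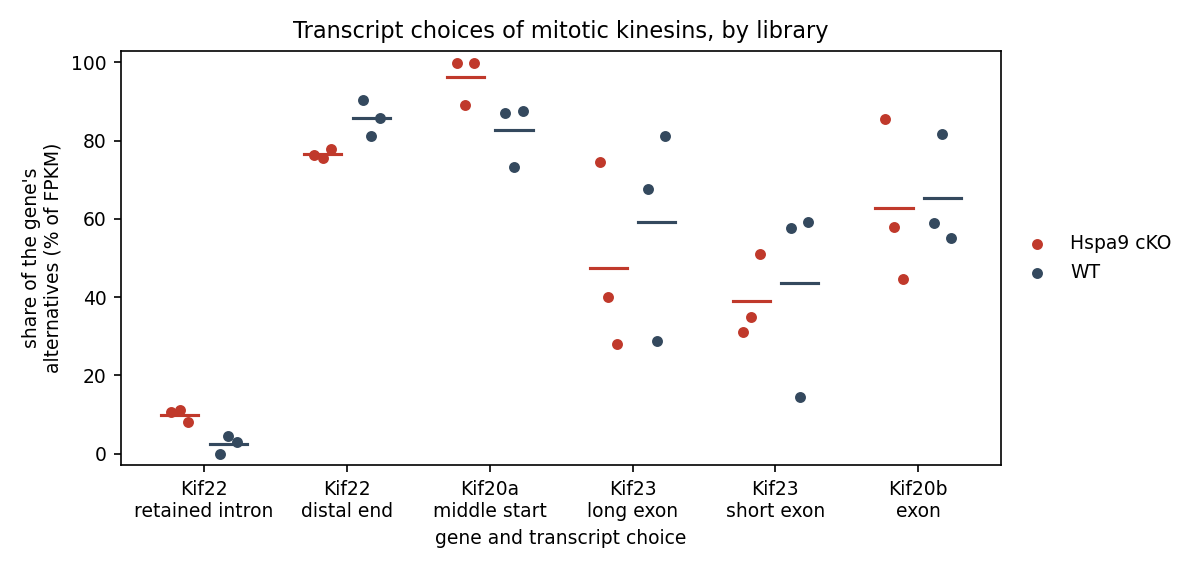
Share of a gene's competing transcripts (percent of their FPKM) for 6 choices of mitotic kinesins, in the 3 Hspa9 cKO libraries (red, left) and the 3 WT libraries (dark blue, right), with lines at group means. The Kif22 intron, the Kif22 end and the Kif20a start separate the groups, whereas the exons of Kif23 and Kif20b spread over much of the range within each group.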

How the data were processed

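RNA sequencing of sorted DN3 thymocytes gave 1 deposited table per library, for 3 Hspa9 cKO and 3 WT libraries, grouped by sample title. Per the labels' protocols, messenger RNA was enriched with a poly(A) module or an rRNA removal kit, and the labels do not say which. The submitters' processing notes name cutadapt 1.9.1 and the build mm10. Aligner, assembler, event caller, annotation and strandedness: not given in the sources used here. The authors deposited FPKM of transcript-structure events, per the file headers. Such values depend on how reads were divided among isoforms. An event that a table leaves out was set to 0, which can be a failed estimate. Depth is unknown, so no counting interval can be given and the number of libraries limits the precision.

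Start events were found by gene ID, repeated events were dropped, and their FPKM were added to give the level of a gene (11276 genes). End events stood in for genes with no start (477 genes). Events had to lie at the gene's position in GENCODE M21, and 90.2% of start events did. The two-sided test was limma's (version 3.58.1, R 4.3.3) on log2(FPKM + 1), using eBayes with trend and robust set. Genes entered if 3 or more libraries reached 1 FPKM. Benjamini-Hochberg adjustment ran over all 8883 genes, with a threshold of 0.05. A fold change on this scale understates the change of low genes. Single values and shares had exact two-sided permutation tests. A transcript choice was compared where its alternatives had a mean total of at least 1 FPKM and its mean share was between 2 and 98%. Data of 8883 genes were simulated for this comparison. The share of changed genes recovered was 25.4% at a log2 change of 0.5, 59.7% at 1 and 86.4% at 2, and 5 of 119 calls were false. The simulation raised the mean of low genes and changed fewer genes than were called in the data. Its shares therefore need not hold for genes as low as Kif14.

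The members and lists were chosen with earlier results of these data known. Named genes were every mitotic kinesin, every other called kinesin and 4 further kinesins of the highest mean level, the 2 genes of smallest adjusted p per list and direction, the 5 nearest profiles, and Hspa9. Aurkb, Cdca8, Prc1, Cit, Mapre1, Foxm1, Kif18a, Kif24, Kif2a, the MuvB subunits, Rbl1, Rbl2, Mybl2 and the markers were named in addition, for their known roles, after values were seen. The result of 1 marker gene is not reported here. Alternatives were a replicate block, a pseudocount of 0.1, other filters (none, 5 FPKM), levels from ends, 2 rescalings, no position check, a length trend removed, a stricter minimum for choices added after seeing the data, and leaving out each library.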

Additional observations from a re-analysis of the deposited data

How the results depend on the processing

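The 10 mitotic kinesins were called lower with a pseudocount of 0.1, with no filter, with both rescalings, without the position check and with the length trend removed, with medians of -0.74 to -0.90. Of all genes tested in these fits, 3.97 to 7.75% were called lower. With a 5 FPKM filter 8 of 8 tested were called, beside 7.41% of all tested genes. With levels from transcript ends 8 of 9 were called, beside 6.03% of all tested genes. Of these 9, Kif2c, Kif14 and Kif20b had no usable end and kept their start levels, so 5 of the 6 tested on ends were called. The exception was Kif23, whose change turned to 0.18 with levels from ends; the listed ends leave out its annotated 3′ end. Of 147 refits of single members, 115 kept the call, 31 lost it with the same direction and 1 reversed.

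Leaving out 1 library left 5 to 8 of the 10 called, and 5 (Kif2c, Kif4, Kif15, Kif18b and Kif23) in all 6 such fits. All 60 log2 changes stayed below 0, and 38 were called. In these fits 195 to 329 genes of all were called lower (518 with all libraries) and 215 to 495 higher (745). Of the partner and cell cycle genes 36 to 46 were called lower (62). Of the other kinesins 0 to 2 were called lower and 0 to 1 higher, and 9 to 13 transcript choices were apart (9).

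With the replicate number as a block, 1 mitotic kinesin, Kif23, was called (adjusted p = 0.0280). Of all genes 82 were called lower, which is 0.923%, and 144 higher. Of the partner and cell cycle genes 22 were called lower, and 0 other kinesins were called in either direction. Whether the numbers pair the samples is not known. Over all tested genes, deviations of same-numbered libraries correlated at 0.0196, -0.0257 and -0.0230, and those of other pairs at -0.0303 to 0.0526. Such correlations cannot exclude a pairing that acts on some genes.

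Of the other kinesins, 0 were called higher with levels from ends, where Kif21b and Kif17 had no tested level and Kifc1 was called lower, and with the length trend removed, where Kif21b changed by 0.29. In addition, 2 were called lower with the trend removed, as Kif5b joined Kif17, and 2 without WT 3, as Kifc1 did. The cause was not tested. The split of higher to lower calls, 745 to 518, became 618 to 624 after rescaling by trimmed means, 629 to 611 by median ratios and 611 to 688 with the length trend removed, which moved the median of all genes from 0.06 to 0.02, 0.02 and -0.000185. The depth of the libraries is unknown, and 3 against 3 libraries limit the precision.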
